A study of Mus musculus with 2 samples.

Results

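The genes Hnrnpa2b1, Hnrnpa3 and Hnrnpa1 encode proteins of the A/B group of heterogeneous nuclear ribonucleoproteins (hnRNPs). A fixed window for each of these 3 genes held HA-Dido3 peaks in mouse embryonic stem cells. Members were the listed peaks that overlapped 1 fixed window per gene in the genome build mm9. The window of Hnrnpa2b1 ran from 51400000 to 51430000 on chromosome 6, that of Hnrnpa3 from 75487000 to 75518000 on chromosome 2, and that of Hnrnpa1 from 103060000 to 103087000 on chromosome 15. This gave 8 peaks of the 2888 in the list, with 3 in the window of Hnrnpa2b1, 2 in that of Hnrnpa3 and 3 in that of Hnrnpa1. Below, a peak of a gene means a peak in its window, which may lie outside the gene itself. Both the genes and the windows were chosen with the peaks known, so all values below describe these sites and none is a test.

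The cells were C57BL/6 embryonic stem cells of the genotype Dido3deltaCT+HADido3, which means that the Dido3deltaCT cells had been given HA-tagged Dido3 back. They were grown with leukemia inhibitory factor, which keeps such cells in self-renewal. Chromatin was precipitated with an anti-HA polyclonal antibody and sequenced as 1 library (chromatin immunoprecipitation sequencing, ChIP-seq), which was set against 1 input library of the same genotype made without antibody. Whether the line is a single clone is not given in the sources used here, and the samples include no precipitation from untagged cells, so binding of the tagged protein and non-specific precipitation cannot be told apart.

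hnRNP A/B proteins bind nascent and mature RNA through paired RNA recognition motifs and a glycine-rich tail. They influence which splice sites are used, often in opposition to SR proteins, and take part in RNA export and transport. Hnrnpa2b1 produces the A2 and B1 isoforms by alternative splicing, Hnrnpa1 encodes a shuttling protein known as a repressor of exon inclusion, and Hnrnpa3 encodes a close relative that also binds RNA. Dido3 is the largest protein of the Dido1 gene and has a PHD finger, a domain that reads methylated histone H3.

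Hnrnpa2b1 had the peak with the highest score and the most tags of the 8, while the main Hnrnpa3 peak was ahead of it by fold and by tags per kb. The main Hnrnpa2b1 peak lay at 51407508 to 51411255 on chromosome 6, was 3748 bp long, and held 384 ChIP tags (exact 95% Poisson interval 347 to 424). A tag is 1 aligned ChIP read counted in the peak. Its summit, the point of highest signal, was at 51409317, close to the middle of the peak. The deposited fold enrichment over the background of the peak caller was 53. The deposited score, read as 10 times the negative log10 of the p-value, was 3172.42, the highest of all 2888 peaks.

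Hnrnpa2b1 is transcribed from the minus strand, and its other 2 peaks lay on the downstream side of the strong one. The nearer, at 51406586 to 51407255, was separated from it by 252 bp and had 670 bp and 38 tags at a fold of 21.89, with a score of 224.8. Its summit was at 51407020, 2297 bp downstream of the main summit. The farther peak, at 51405145 to 51405609, had 465 bp and 16 tags at a fold of 15.65, with a score of 82.13 and its summit at 51405424. In the direction of transcription, tags per kb of these called peaks were 102, 56.7 and 34.4. The last is below the lower quartile of the list (35.4). Tags per kb also went with length in the list, with a median of 60.3 for peaks longer than 1000 bp against 38.8 for all. The main peak held 87.7% of the 438 tags in the called peaks of the window.

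Hnrnpa3 had a strong peak and a separately called weaker one. The strong peak, at 75506513 to 75509070 on chromosome 2, was 2558 bp long with 299 tags (interval 266 to 335), a fold of 64.58 and a score of 2664.68, the fifth highest of the list. Its summit was at 75507482. With 117 tags per kb it was the densest of the 8 peaks, ahead of the longer Hnrnpa2b1 peak.

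Hnrnpa3 is transcribed from the plus strand, and its weaker peak lay upstream of the strong one, the reverse of the order at Hnrnpa2b1. It covered 75505213 to 75506331 (1119 bp), had its summit at 75506043 and held 81 tags (interval 64.3 to 101) at a fold of 33.27 and a score of 581.22. Only 181 bp separated the pair, and the weaker summit was 1439 bp from the stronger. Both were longer than 1000 bp, and together they held 380 tags.

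Hnrnpa1 had the weakest signal of the 3 genes. Its largest peak, at 103077723 to 103079053 on chromosome 15, was 1331 bp long with its summit at 103078346, and held 73 tags (interval 57.2 to 91.8) at a fold of 23.48. Its score of 454.44 ranked 195 in the list. This peak still stood at place 7 among the 107 peaks of chromosome 15, whereas the main peaks of Hnrnpa2b1 and Hnrnpa3 each ranked 1 on their own chromosomes, among 113 and 229 peaks.

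A small peak flanked the largest Hnrnpa1 peak on either side. The upstream one, at 103075619 to 103075975, had 357 bp and 14 tags (interval 7.65 to 23.5) with a fold of 11.74, a score of 79.68 and its summit at 103075833. The downstream one, at 103079067 to 103079271, began after a gap of 13 bp and had 205 bp and 9 tags at a fold of 15.65, with a score of 57.5 and its summit at 103079188. No peak in the list had fewer than 9 tags, so this is a site at the lower limit of what was called. Its deposited false discovery rate was 7.65%.

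**Figure D1:**
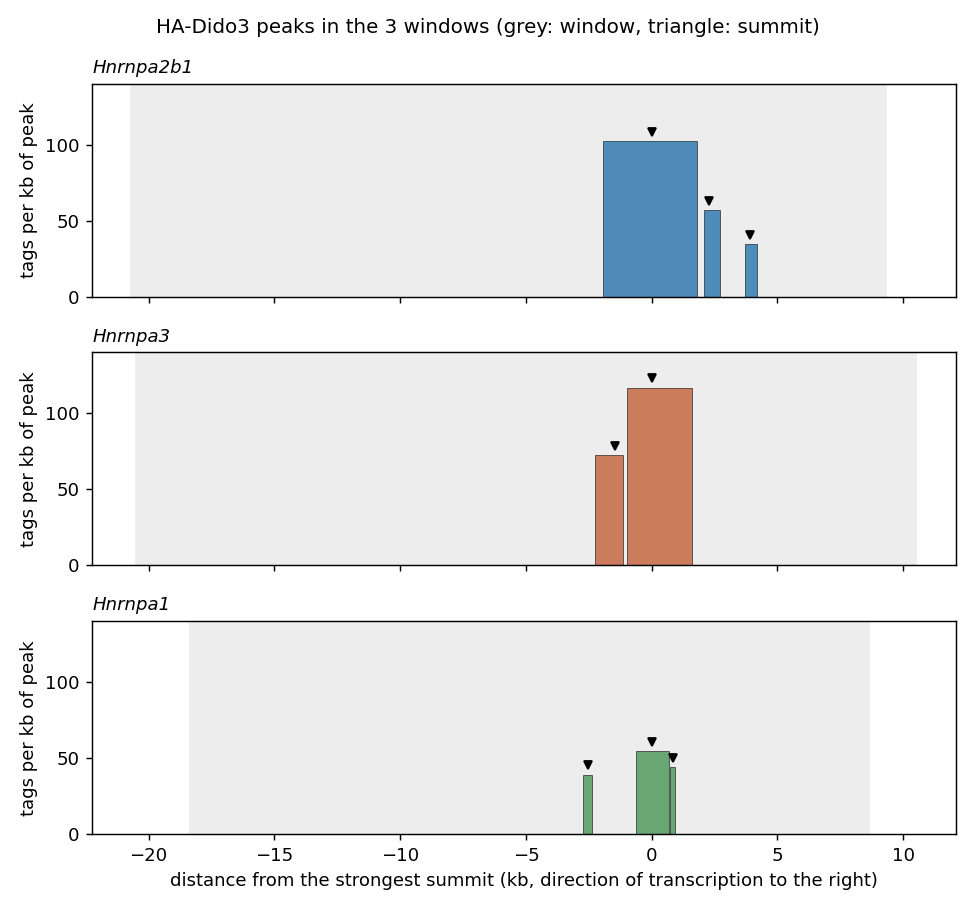
Tags per kb of peak (vertical axis) against the distance in kb from the strongest summit of each gene (horizontal axis), drawn in the direction of transcription, with the window in grey, each peak as a box from its start to its end and each summit as a triangle. The main peak is followed by weaker peaks at Hnrnpa2b1, preceded by 1 at Hnrnpa3 and flanked on both sides at Hnrnpa1.

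In all 3 windows the peaks formed 1 compact run in the downstream part. Taking the direction of transcription from RefSeq (GRCm38.p6, strand only), the main summit lay 20.7 kb from the upstream edge of the 30 kb window of Hnrnpa2b1, 20.5 kb from that of the 31 kb window of Hnrnpa3 and 18.3 kb from that of the 27 kb window of Hnrnpa1. These are 68.9%, 66.1% and 67.9% of the window. The runs were 6.11, 3.86 and 3.65 kb long. No peak was listed in the first 18.7 kb of the Hnrnpa2b1 window, the first 18.2 kb of the Hnrnpa3 window or the first 15.6 kb of the Hnrnpa1 window. The windows were drawn with these peaks known, so these shares depend on where their edges were put. Whether the runs lie at the start, in the body or past the 3′ end of the genes was not analysed here, because no mm9 gene model was used and coordinates were not converted between builds.

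The order of genes in RefSeq (GRCm38.p6) gives the surroundings. Upstream of Hnrnpa2b1 the next protein-coding gene is Cbx3, and upstream of Hnrnpa1 it is Cbx5, both of which encode heterochromatin protein 1 family members and run on the strand opposite to their hnRNP neighbour. Upstream of Hnrnpa3 it is Gm50595, a gene with only a systematic name, also on the opposite strand. Downstream, the next gene is Nfe2l3 for Hnrnpa2b1, Nfe2l2 for Hnrnpa3 and Nfe2 for Hnrnpa1, which encode related leucine zipper transcription factors. Nfe2l3 and Nfe2l2 are both transcribed towards the hnRNP gene that they follow. Where the runs lie relative to any of these genes was not analysed here.

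The distance from the runs to the next listed peaks differed between genes and sides. Around the Hnrnpa2b1 run the next listed peaks were 654 kb upstream and 2054 kb downstream. Around the Hnrnpa1 run they were 584 kb upstream and 94.7 kb downstream. For comparison, the median gap between neighbouring regions of the list, where a region joins peaks within 10 kb, was 382 kb (quartiles 97.7 and 1534 kb, n = 1819 gaps).

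Hnrnpa3 had a further peak 23.8 kb upstream of its run, just outside the window by 5.56 kb. It covered 75481157 to 75481440 with 284 bp and 10 tags at a fold of 13.7, and its score of 54.74 was close to the lowest score of the list (50.05). In the other direction no peak was listed for 5136 kb. Of the 6 gaps around the 3 runs, those of 23.8 and 94.7 kb were below the lower quartile of the list and those of 2054 and 5136 kb above the upper one, so the surroundings of the runs span the range of the list. The nearest member inside this edge was the 1119 bp peak with 81 tags.

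Between genes, Hnrnpa2b1 and Hnrnpa3 were close in number of tags and Hnrnpa1 had far fewer. The called peaks of the Hnrnpa1 window held 96 tags in all (interval 77.8 to 117). Those of the Hnrnpa2b1 window held 4.56 times as many (exact 95% interval 3.65 to 5.75) and those of the Hnrnpa3 window 3.96 times as many (interval 3.16 to 5.005). Reads elsewhere in the windows were not counted. Between the other two the ratio was 1.15 (interval 1.00 to 1.33) over all peaks and 1.28 (interval 1.10 to 1.499) for the main peaks alone. These intervals cover counting error at most, and only if reads are independent molecules, which is not known. They cover no spread between libraries, since there is no replicate library.

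**Figure D2:**
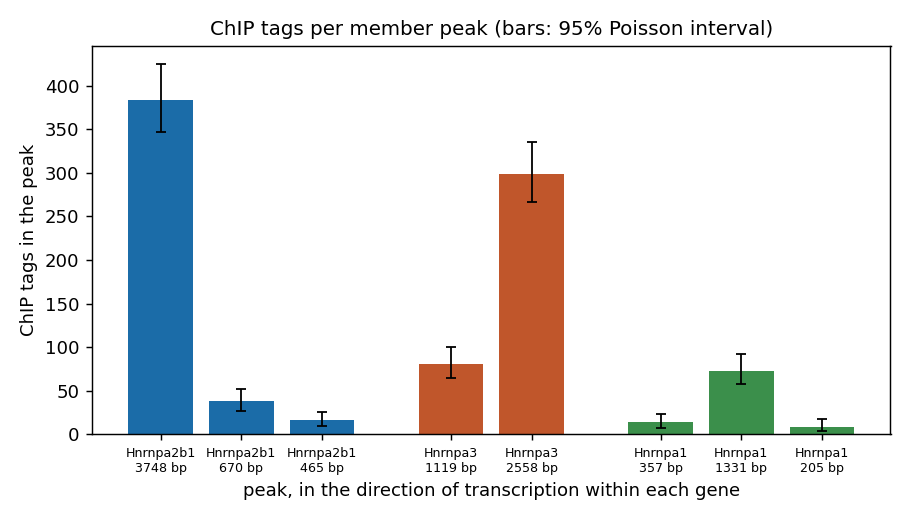
ChIP tags in each of the 8 peaks (vertical axis, from 0), grouped by gene and ordered in the direction of transcription (horizontal axis, with peak lengths), with exact 95% Poisson intervals as error bars. The main peaks of Hnrnpa2b1 (384 tags) and Hnrnpa3 (299 tags) exceed the other 6, which hold 9 to 81 tags.

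In each window a single peak dominated. The main peak held 87.7% of the tags in called peaks at Hnrnpa2b1, 78.7% at Hnrnpa3 and 76.0% at Hnrnpa1. Across all 626 regions with at least 2 peaks, the largest peak held a median of 57.1% (quartiles 50 and 70.3%). These include weak regions, where the minimum of 9 tags per peak limits the share of the largest. The regions ranked 1 and 2 by summed tags held 1121 and 972 tags, in 3 and 6 peaks. The peaks of 914 and 882 tags lie in these, in different regions, so a single peak dominated there too. Shares in other regions as strong as the hnRNP runs were not compared. Ranked by summed tags among 1839 regions, the Hnrnpa2b1 run was number 11, the Hnrnpa3 run 12 and the Hnrnpa1 run 211. The 3 runs held 11.02%, 6.16% and 3.60% of all peak tags on their chromosomes, and the 8 peaks 1.08% of the tags of the whole list.

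The 8 peaks ranged from rank 1 to rank 2169 by score. Of the 8, 4 were longer than 1000 bp, where 11.3% of all peaks were. A score of at least 100 was reached by 5, against 35.9% of the list, and a deposited false discovery rate of at most 5% by 6, against 64.6% of the list. Nothing is read from these counts, since the sites were chosen with their peaks known.

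The false discovery rates need care at the top of the list. The Hnrnpa2b1 main peak is listed at 0% and the Hnrnpa3 main peak at 20%, although the scores are 3172.42 and 2664.68. The peak caller counts how many peaks appear with ChIP and input exchanged. The rate times the rank gives 1 such peak at or above the score of the Hnrnpa3 main peak, and 1 of 5 is 20%. The rate of 20% therefore rests on 1 peak called in the exchanged direction that need not lie near Hnrnpa3, and is no measure of this site alone.

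Among the 325 peaks longer than 1000 bp, the main peaks of Hnrnpa2b1 and Hnrnpa3 were above the upper quartile in tags per kb and that of Hnrnpa1 was between the quartiles. Most of these 325 peaks were shorter than those of Hnrnpa2b1 and Hnrnpa3, which ranked 10 and 32 by length in the list. The median was 60.3 tags per kb (quartiles 50.3 and 76.2). The Hnrnpa3 main peak ranked 6 of these by tags per kb and the Hnrnpa2b1 main peak ranked 16. The Hnrnpa1 main peak, with 54.8 tags per kb, ranked 203, and the weaker Hnrnpa3 peak, with 72.4, ranked 100. By fold the ranks were 5, 11, 167 and 78 in the same order of peaks, against a median fold of 24.53.

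**Figure D3:**
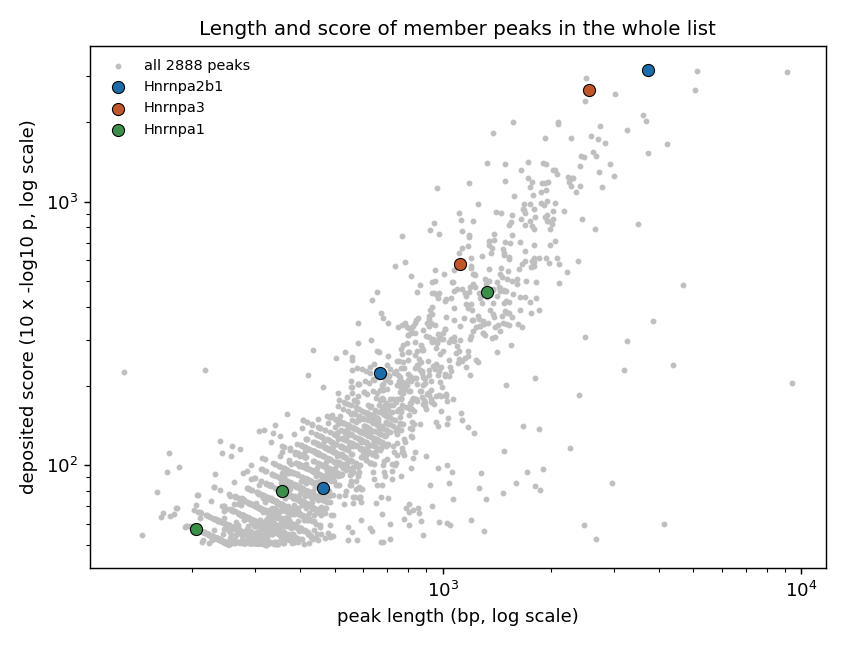
Deposited score (vertical axis, log scale) against peak length in bp (horizontal axis, log scale) for all 2888 peaks in grey and the 8 hnRNP A/B peaks in colour. The main peaks of Hnrnpa2b1 (3748 bp) and Hnrnpa3 (2558 bp) lie at the upper end. Below them, the peaks with scores of 581.22, 454.44 and 224.8 are still above the upper quartile of scores in the list (133). The remaining peaks are below that quartile.

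The background against which a peak was called enters its fold. Of the 8 peaks, 6 had folds that were whole multiples (within 0.01) of a step of 1.957 shared by 2098 folds of the list, taken here as the mark of a background at the genome-wide minimum. The other 2, the main Hnrnpa2b1 peak and its nearer neighbour, did not, and were taken as having a higher local background, while the farther Hnrnpa2b1 peak was at the minimum. In the whole list 27.4% of peaks were of this kind, so 2 of 8 is near the background share. A higher background lowers the fold, so the folds of 53 at Hnrnpa2b1 and 64.58 at Hnrnpa3 are not on an equal footing.

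Peaks next in rank show what the rest of the list looks like at these strengths. Ranks 2, 3 and 4, which lie between the main Hnrnpa2b1 and Hnrnpa3 peaks, had 419, 882 and 318 tags and were 5123, 9148 and 2511 bp long. Ranks 6 to 8 had 479, 307 and 277 tags and lengths of 5045, 3030 and 2493 bp. The Hnrnpa3 peak was thus among the shorter and more compact of this group. The 6 peaks around the main Hnrnpa1 peak, at ranks 192 to 198, had 57 to 82 tags and lengths of 657 to 1484 bp, a range that includes its 73 tags and 1331 bp.

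hnRNP A/B genes have processed pseudogene copies elsewhere in the genome, and how reads with several matches were handled is not given in the sources used here. Tags in parts that such copies share are uncertain for this reason, and their part in the values above was not tested.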

How the data were processed

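The data were 1 list of HA-Dido3 ChIP-seq peaks from 1 ChIP and 1 input library of mouse embryonic stem cells. Per the submitters' processing notes, the tools were Bowtie, SAMtools and MACS 1.4 and the build was mm9. Calling options and read totals are not given in the sources used. Each deposited peak has, per the file headers, a tag count (whole, unscaled), a score of 10 times the negative log10 p-value, a fold enrichment (a ratio) and a false discovery rate in percent. Positions are 1-based as deposited, and the summit was taken as start plus summit offset minus 1.

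Peaks overlapping the 3 windows by any base were kept. The members, windows and gene lists were chosen with earlier results of these data known. All peaks in the windows are named, with the 3 nearest in rank on each side of each main peak. The main Hnrnpa2b1 peak, the highest in score, has such neighbours only on the lower side. Poisson and Clopper-Pearson intervals are exact at 95% confidence. Regions join peaks within 10 kb. The overlap, region and step searches were tested on simulated data. RefSeq (GRCm38.p6) gave strands and gene order for all 3 genes, and no coordinates. No peak sequence is printed because no mm9 genome was used. Alternatives were other cut-offs, overlaps, window widths and ranking measures. Calculations used Python 3.11.15, pandas 2.3.3, numpy 2.4.6, matplotlib 3.10.9 and scipy 1.17.1.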

Additional observations from a re-analysis of the deposited data

How the results depend on the processing

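The 8 peaks remained 8 when 50% of the peak or its summit had to lie inside the window and when windows were narrowed by 5 kb. They became 9 when windows were widened by 10 kb, which adds the peak upstream of Hnrnpa3. Among the higher-scoring 50% of peaks 7 were counted, and at a false discovery rate of at most 5% there were 6, without the main Hnrnpa3 peak. At a score of at least 100 the count was 5, and with peaks within 10 kb joined it was 3, 1 per gene. The main Hnrnpa2b1 peak moved from rank 1 by score to 7 by tags, 15 by fold and 22 by tags per kb. The main Hnrnpa3 peak moved from 5 to 15, 6 and 8, and the main Hnrnpa1 peak from 195 to 224, 256 and 339. By fold and by tags per kb Hnrnpa3 thus ranked ahead of Hnrnpa2b1, and Hnrnpa1 came last by each measure. Planned placements relative to gene models, and counts for other hnRNP and splicing factor genes, were not run, since both need an mm9 annotation. No paired analysis was possible because no condition has a second library. Read depth is unknown, so a stretch without a peak cannot be read as unbound.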
